A study of Equus caballus with 4 samples.

Results

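The genes described here are the retinoic acid receptors *RARA*, *RARB* and *RARG*, the retinoid X receptors *RXRA*, *RXRB* and *RXRG*, the retinoic acid binding proteins *CRABP1* and *CRABP2*, and *CYP26B1*, an enzyme that degrades retinoic acid. These 9 genes were taken by symbol from the 14563 gene symbols on the array. Of the 43603 non-control probes, 19 belonged to these 9 genes, and 18 of them carried the symbol of a gene in the files. The *CYP26B1* probe carried only a provisional symbol and was named through its RefSeq gene ID. The cells were equine satellite cells, the muscle precursor cells, from *m. semitendinosus*. The methods give stallions 6 months old as the source and one selected culture, so the arrays need not stand for different horses. The HMB-treated group received 50 µM HMB (β-hydroxy-β-methylbutyrate, a leucine metabolite) for 24 h and 3 mM H2O2 in the last 1 h, up to day 3 of differentiation. The control received H2O2 without HMB, so all cells compared had been exposed to H2O2. Each of 4 arrays held one HMB-treated RNA in the Cy5 channel and one control RNA in the Cy3 channel. The dyes were not swapped, so HMB and dye cannot be told apart. In the labels the control RNA carries replicate number 1 on all 4 arrays. If a single RNA was used, the spread between control cultures is missing from every error given here.

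As background, retinoic acid is made from vitamin A: retinol is oxidised to retinal, and retinal is oxidised to retinoic acid by ALDH1A enzymes. In the nucleus it binds retinoic acid receptors, which sit on DNA as heterodimers with retinoid X receptors and exchange corepressors for coactivators when bound. CRABP proteins carry retinoic acid in the cytoplasm, and CYP26 enzymes clear it. *RARB* itself is a classical target of the pathway. Retinoid X receptors also pair with other nuclear receptors, and retinoic acid signalling is known to affect myoblast differentiation.

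The probes are 60 bases long, and their positions are those of EquCab1 in the files, which state no exon or UTR for a probe. The *RARB*, *RARG* and *RXRA* probes are shown first because the called probes lie there. Only the first 30 bases of each are printed, 5′ to 3′. The 5 *RARG* probes lie on the minus strand of chromosome 6, from chr6:70278279-70278338 for P053420 to chr6:70278275-70278334 for P053416, and share 56 bases. Capitals mark the part of that shared stretch within the bases printed.
RARG probe P053420: tccaCCCCGCTGTATCGCATATTGCTGAGT
RARG probe P053419: ccaCCCCGCTGTATCGCATATTGCTGAGTT
RARG probe P053418: caCCCCGCTGTATCGCATATTGCTGAGTTT
RARG probe P053417: aCCCCGCTGTATCGCATATTGCTGAGTTTT
RARG probe P053416: CCCCGCTGTATCGCATATTGCTGAGTTTTC

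The 5 *RXRA* probes lie on the minus strand of chromosome 25, from chr25:2228636-2228695 for P014825 to chr25:2228631-2228690 for P014821. They share 55 bases, again in capitals.
RXRA probe P014825: aagagATATGTTGCCACCTGCGTTATTTTT
RXRA probe P014824: agagATATGTTGCCACCTGCGTTATTTTTA
RXRA probe P014823: agATATGTTGCCACCTGCGTTATTTTTAAT
RXRA probe P014822: gATATGTTGCCACCTGCGTTATTTTTAATA
RXRA probe P014821: ATATGTTGCCACCTGCGTTATTTTTAATAC

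The 3 *RARB* probes lie on the minus strand of chromosome 16. P117722 at chr16:57475645-57475704 and P117721 at chr16:57475585-57475644 abut without overlap, and P056971 at chr16:57476808-57476869 lies upstream of both in the direction of the gene. They share no stretch and have no capitals.
RARB probe P056971: tttccagctacttcagacattccccagtac
RARB probe P117722: ttagcaagtctgtgatgtactttcactggc
RARB probe P117721: gctttctatgttcatatactgtttaccttt

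The *CRABP1*, *CRABP2* and *RXRB* probes are printed whole, and each is the only probe of its gene. The *CRABP1* probe spans chr1:113214754-113216846 and the *CRABP2* probe chrUn:84910369-84913719 (minus strand), stretches far longer than the probe. The *RXRB* probe lies at chr20:27069326-27069385 (minus strand).
CRABP1 probe P097531: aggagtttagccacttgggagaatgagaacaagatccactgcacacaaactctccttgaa
CRABP2 probe P075141: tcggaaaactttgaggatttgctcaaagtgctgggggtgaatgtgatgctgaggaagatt
RXRB probe P038391: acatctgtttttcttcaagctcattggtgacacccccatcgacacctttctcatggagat

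The remaining single probes were *RARA* P033336 at chr11:20964222-20964281 (minus strand), *RXRG* P074406 at chrUn:164405915-164407192 (minus strand) and *CYP26B1* P059061 at chr15:27357689-27357748.

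Values are log2 ratios of the HMB-treated group over control on each array, and means are given ± SD over the 4 arrays. A probe was tested when a channel was well above background on all 4 arrays. It was called, that is counted as changed, at a limma adjusted p of at most 0.05 and a fold change (FC) of at least 1.3. Between 57.6% and 60.6% of spots were well above background in Cy3 and between 55.2% and 61.8% in Cy5, and the correlation of the ratios between arrays was 0.837 to 0.920. Of 24673 tested probes, 7048 (28.6%) were called, 2997 (12.1%) higher and 4051 (16.4%) lower with HMB. When ratios were shifted so that spike-in RNAs averaged 0, the median of the tested probes moved from -0.07 to -0.56 and the split became 1245 higher and 17331 lower. It was 1945 higher and 1593 lower with normexp background correction and loess, and 2669 higher and 1770 lower with loess alone. All ratios below are relative to the bulk of the probes on the array, unless the spike-in scale is named.

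Of the 19 probes, 10 were tested, from *RARB*, *RARG*, *RXRA*, *RXRB* and *CRABP2*. The 8 probes called were all higher with HMB, against 12.1% of all tested probes called higher. They were 2 probes of *RARB*, 5 of *RARG* and 1 of *RXRA*. The *RARB* and *RARG* probes were well above background in both channels on all 4 arrays. The *RXRA* probe passed the filter only through the HMB-treated group, where it was the higher, so its call is given as a description and not as support for a difference. With both channels required, 9 member probes were tested and 7 called higher, against 2546 of all 22653 probes tested that way. Since the 5 *RARG* probes read nearly the same bases, they count as 1 measurement of that gene and not as 5. The *RXRB* and *CRABP2* probes were not called, and no probe of *RARA*, *RXRG*, *CRABP1* or *CYP26B1* was bright enough to be tested. None of the member spots was flagged or saturated. In the same comparison 5 of 7 tested myogenic markers were lower and 4 of 6 tested fibroblast markers higher with HMB, and their part in these results was not tested. In RNA from whole cultures, fewer cells of a type and less RNA per cell cannot be told apart.

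**Figure D1:**
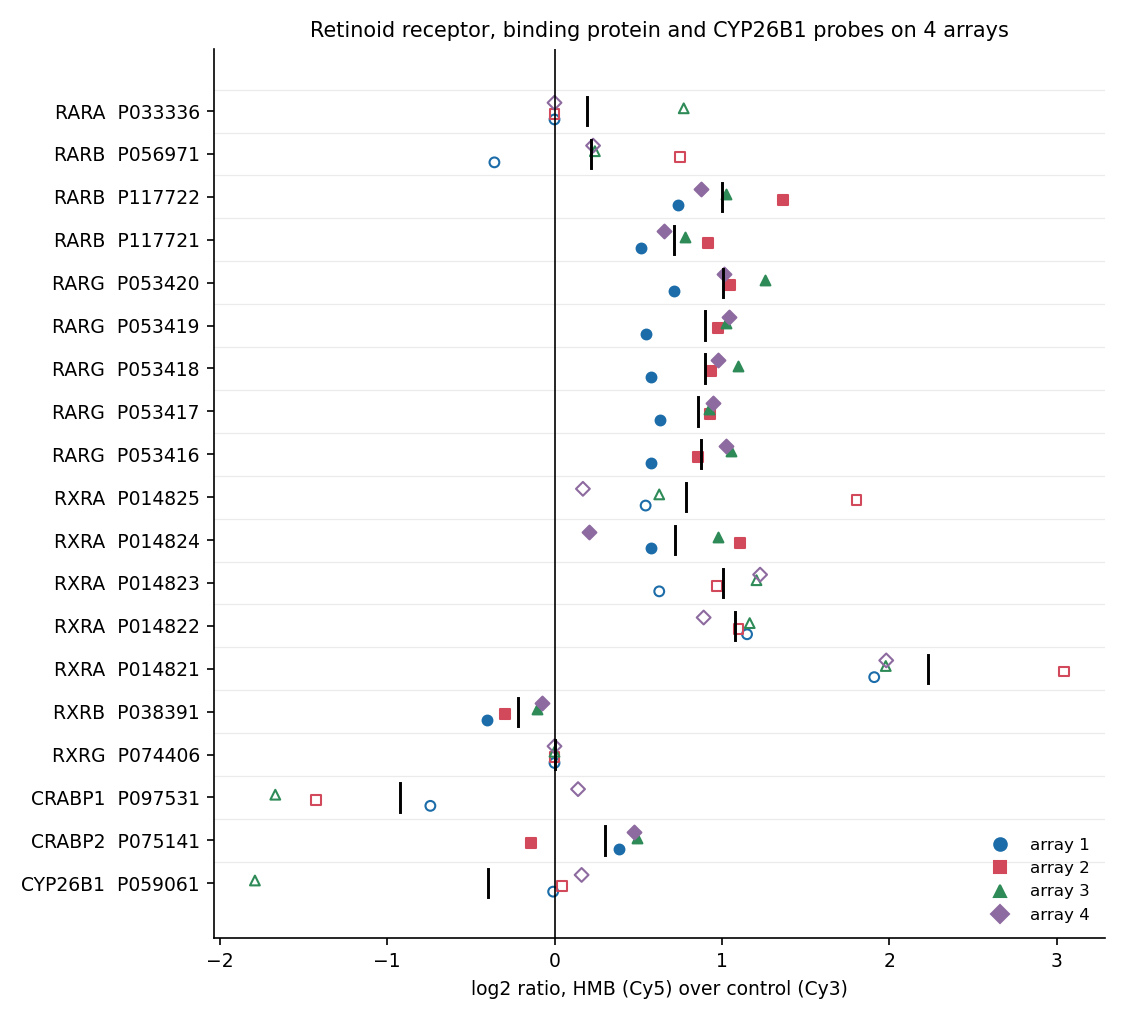
Log2 ratio of HMB over control (x axis) for each of the 19 probes (rows, gene and probe number) on 4 arrays (symbols). Filled symbols are tested probes, open symbols are probes too dim to test, and the black bar is the mean. The *RARB* P117722, *RARB* P117721 and *RARG* probes lie to the right of 0 on every array, while the *RXRB* probe lies to the left of 0 on every array.

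*RARB*, the receptor whose own transcription responds to retinoic acid, was higher with HMB on both adjacent probes. For P117722 the ratio was 0.74 on array 1, 1.36 on array 2, 1.03 on array 3 and 0.87 on array 4. The normalized signals, in scanner units, were 62.0, 50.3, 93.8 and 77.7 in the control and 103, 129, 191 and 143 in the HMB-treated group, in the order of the arrays. The lowest HMB signal was 103 and the highest control signal 93.8. The mean ratio was 1.00 ± 0.27, an FC of 2.00 (limma adjusted p = 7.91e-04). The ratio of P117722 was smaller, at 0.44, under normexp and loess and 0.62 with loess alone, and it stayed called under both. For P117721 the ratio was 0.52, 0.91, 0.78 and 0.65 on arrays 1 to 4, with control signals of 61.8 to 92.3 and HMB signals of 94.0 to 158. The arrays fell in the same order on both probes, with array 1 lowest and array 2 highest. The mean ratio was 0.72 ± 0.17, an FC of 1.64 (limma adjusted p = 9.59e-04). Under normexp and loess this probe had a ratio of 0.29 and was not called.

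The upstream *RARB* probe P056971 was near background. It was well above background in the control on 0 of 4 arrays and in the HMB-treated group on arrays 2 and 3 only. Its ratios were -0.36, 0.75, 0.24 and 0.23, a mean of 0.22 ± 0.45 that was not tested. Array 1 was the only one with a ratio below 0. No bound is given, as the HMB signal was not well above background on arrays 1 and 4. The files do not state whether this probe and the brighter pair read the same transcript.

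*RARG* encodes another retinoic acid receptor, and its 5 probes were bright in both channels on all 4 arrays. On P053420, the probe with the largest ratio, the control signals were 187, 153, 165 and 160 and the HMB signals 306, 317, 395 and 324 on arrays 1 to 4. The highest control signal was 187 and the lowest HMB signal 306. The ratios were 0.71, 1.05, 1.26 and 1.01, a mean of 1.01 ± 0.22 and an FC of 2.01 (limma adjusted p = 4.66e-04). Over the 5 probes the mean ratio was 0.86 to 1.01 and the limma adjusted p was 3.79e-04 to 8.52e-04. The mean ratios were smaller, at 0.53 to 0.65, under normexp and loess and 0.72 to 0.85 with loess alone. All 5 probes stayed called under both. Array 1 was the lowest on every one of the 5 probes, at 0.54 to 0.71, against 0.86 to 1.26 on the other arrays.

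*RXRA* encodes a retinoid X receptor, a partner of the receptors above, and its probes were dim. P014824 was the only one tested. Its control signal was well above background on arrays 1 and 4 only, at 32.2 and 29.5, and lay at 20.4 and 19.6 on arrays 2 and 3. Its HMB signals were 48.0, 44.0, 38.6 and 34.1. The lowest HMB signal was 34.1 and the highest control signal 32.2. The probe was admitted by its HMB channel, so this gap is not support for a difference. The ratios were 0.58, 1.11, 0.97 and 0.21, a mean of 0.72 ± 0.41 and an FC of 1.64. Arrays 2 and 3, where the control channel was not well above background, gave the larger ratios. The call was lost under 6 alternatives, among them the methods' t-test and no filter on dim probes, and the probe was not tested when both channels had to be well above background.

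The other *RXRA* probes were not tested. P014825 had a mean ratio of 0.79 ± 0.71, P014823 of 1.01 ± 0.28 and P014822 of 1.08 ± 0.13. P014821 had the largest, 2.23 ± 0.55, with control signals of 5.81 to 12.6 that were never well above background and HMB signals of 38.3 to 49.7. Its largest ratio, 3.05, was on array 2, where the control signal was the lowest. The array software had set a surrogate value in place of the control signal on 1 of the 4 arrays. Expressed as a bound against the lowest control signal well above background, the mean over the arrays for P014821 was 2.13-fold higher with HMB. That mean includes array 4, where the HMB signal of P014821 was not well above background. It is thus a description of this probe and not a lower limit for *RXRA*. Under normexp and loess the ratio of P014821 was 0.31. Its HMB signal was well above background on 3 of the 4 arrays. For P014822 this held on 1 array, and no bound is given. All 5 probes had ratios above 0 on all 4 arrays.

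**Figure D2:**
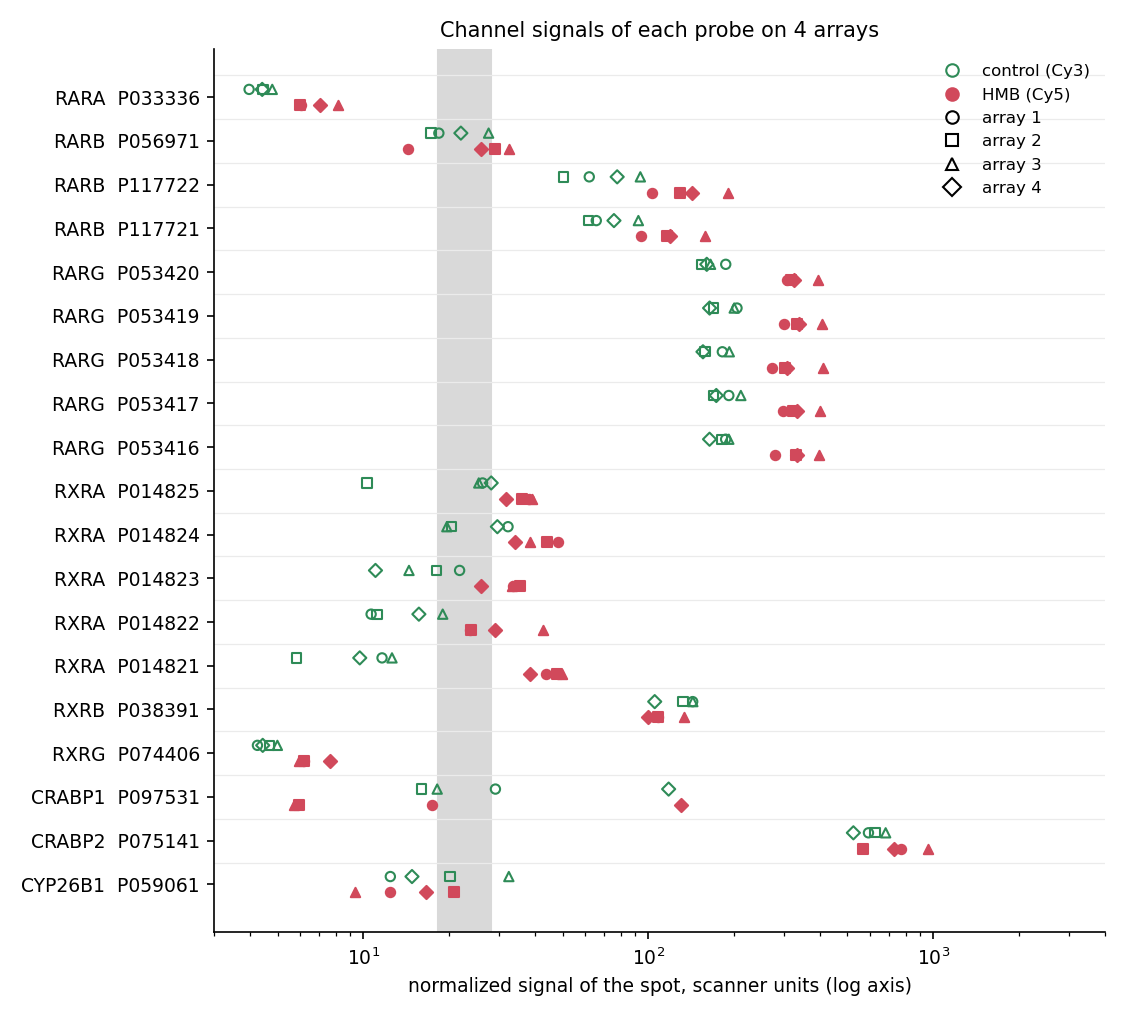
Normalized signal in scanner units (x axis, log scale) of each probe (rows) on 4 arrays (symbol shapes), with the control (Cy3) in open green and the HMB-treated group (Cy5) in filled red. The grey band spans the lowest signals that were well above background on the arrays, from 18.3 to 28.1. The *RARG*, *RARB* P117722 and P117721, *RXRB* and *CRABP2* probes lie above the band, and the *RXRA* probes lie in and around it.

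The tiled probes of *RARG* and *RXRA* show how precisely each gene was read. On an array, the ratios of the 5 *RARG* probes differed by an SD of 0.039 to 0.122, with a mean of 0.074. The averages over the 5 probes differed between arrays by an SD of 0.206. The 5 *RXRA* probes share almost as many bases, yet on an array their ratios differed by an SD of 0.497 to 0.869, with a mean of 0.677. The averages over the *RXRA* probes differed between arrays by an SD of 0.320. For *RARG* the spread between arrays was thus the larger part, and for *RXRA* the spread between overlapping probes. The size of the *RXRA* ratio therefore depended on which probe was read. Its sign was shared, but the probes overlap and their control signals were mostly not well above background. The shared sign is thus not separate support for a difference.

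**Figure D3:**
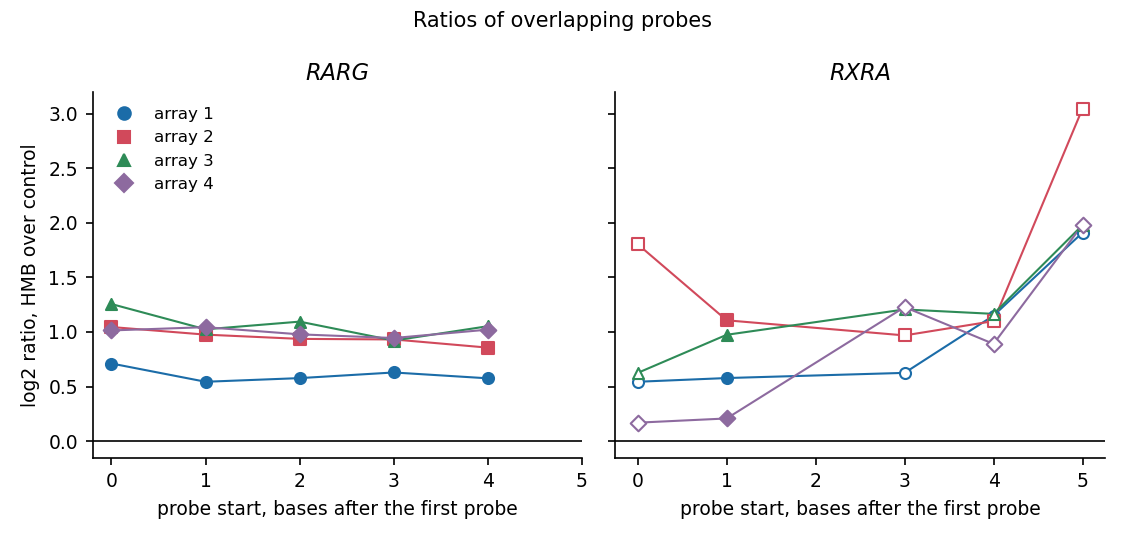
Log2 ratio of HMB over control (y axis) against the start of each overlapping probe in bases after the first (x axis), for *RARG* (left) and *RXRA* (right), with 1 line and symbol per array. Filled symbols are tested probes. The *RARG* lines are flat with array 1 below the others, at 0.54 to 0.71, whereas the *RXRA* lines range from 0.17 to 3.05.

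*RXRB*, a broadly expressed retinoid X receptor, was bright in both channels and was not called. Its ratio was -0.40 on array 1, -0.30 on array 2, -0.11 on array 3 and -0.07 on array 4, a mean of -0.22 ± 0.16 (limma adjusted p = 0.0598). The sign was the same on all 4 arrays, but control signals of 105 to 143 overlapped HMB signals of 100 to 133. On the spike-in scale its ratio was -0.71 and it was called lower. *RXRG*, the retinoid X receptor known from skeletal muscle, was not well above background in either channel on any array. Its ratio was 0 on all 4, as Feature Extraction had set a surrogate value in place of both signals. *RARA* was likewise dim in both channels on every array. Its ratio was 0 on 3 arrays and 0.77 on array 3, where the HMB signal of 8.17 was the only one that was not a surrogate. No fold is given for either gene.

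*CRABP2*, a carrier that passes retinoic acid to its nuclear receptors, was well above background in both channels on all 4 arrays. Its control signals were 592, 625, 681 and 524 and its HMB signals 773, 568, 958 and 729 on arrays 1 to 4. The groups overlapped through array 2, the only array where the control was the higher. The ratios were 0.38, -0.14, 0.49 and 0.47, a mean of 0.30 ± 0.30 (limma adjusted p = 0.0757), which was not called. Without array 2 the ratio was 0.45 and the probe was called, and on the spike-in scale the sign turned, to -0.19.

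*CRABP1*, the related carrier, was not tested. Its control signals were 29.1, 16.0, 18.2 and 118 and its HMB signals 17.4, 5.96, 5.71 and 130. Array 4 thus stood apart in both channels, 4.06-fold above the next array in Cy3 and 7.47-fold in Cy5. Its ratio was 0.14 there and -0.74, -1.43 and -1.67 on arrays 1 to 3. In the HMB-treated group, 2 of the 4 signals were surrogates. The mean ratio was -0.92, and -0.08 under normexp and loess. The signal was well above background in the control on arrays 1 and 4 and in the HMB-treated group on array 4 only. Array 4 was not unusual in this respect. Of 26865 probes well above background at least once, 83 to 131 per array were at least 4-fold brighter in both channels than on every other array, and the number was 129 for array 4.

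*CYP26B1*, the degrading enzyme, was not well above background in either channel on any array. Its signals were 12.4 to 32.4 in the control and 9.37 to 20.7 in the HMB-treated group, which overlapped. The ratios were -0.01, 0.04, -1.79 and 0.16, a mean of -0.40 ± 0.93. Without array 3 the mean was 0.07.

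Among the called probes the members were of middle size. Of the 2997 probes called higher, 1059 had a larger ratio than *RARG* P053420 and 1074 a larger ratio than *RARB* P117722, whereas 1579 exceeded *RXRA* P014824 and 1580 exceeded *RARB* P117721. On the spike-in scale *RARB* P117722 stayed called at 0.51, and 4 of the 5 *RARG* probes stayed called at 0.39 to 0.52. *RARG* P053417 fell just short of the FC threshold there, at 0.37, and *RXRA* P014824 and *RARB* P117721 were no longer called, both at 0.23.

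The other genes of the pathway were read from 6 lists with 77 genes, each gene by its brightest tested probe. Of these, 66 were on the array and 35 were tested. With HMB, 11 of the 35 rose and 2 fell. On the spike-in scale the balance turned, with 5 higher and 17 lower. With both channels required, 33 genes were tested, 10 higher and 2 lower. Of all 22653 probes tested that way, 2546 were called higher and 3324 lower. With either channel sufficient, the share called among all 8679 tested genes was 27.4%, with 10.2% higher and 17.2% lower. The median log2 ratio was 0.19 over the 35 genes and -0.09 over all genes. In 20 listed genes the brightest probe was not well above background in either channel on any array.

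Of 6 tested enzymes that act on retinol and retinal, 3 rose and 3 were not called, with a median log2 ratio of 0.51. *ALDH1A3*, which makes retinoic acid from retinal, had ratios of 2.12, 2.38, 2.64 and 2.17 on arrays 1 to 4. *DHRS3*, which reduces retinal back to retinol, had ratios of 2.07, 2.38, 2.24 and 1.68. On every array both ratios exceeded those of all tested probes of the 9 genes above. The mean was 2.33 ± 0.24 for *ALDH1A3* (FC 5.03, limma adjusted p = 1.81e-05) and 2.09 ± 0.30 for *DHRS3* (FC 4.27, limma adjusted p = 5.90e-05). All 3 tested *ALDH1A3* probes, at 2.33 to 2.43, and all 5 tested *DHRS3* probes, at 2.09 to 2.23, were called. *DHRS9*, a retinol dehydrogenase, had ratios of 1.23, 0.74, 0.91 and 0.45, with a mean of 0.83 ± 0.32 (limma adjusted p = 0.00283). The mean ratios of *ALDH1A3* and *DHRS3* on the spike-in scale were 1.84 and 1.61, and both stayed called. *ALDH1A2*, *RDH8*, *RDH12*, *BCO1* and *BCO2* were not well above background in either channel.

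The lists around uptake and clearance gave few measurable genes. Of 7 listed uptake, transport and storage genes on the array, 0 were bright enough to be tested. *RBP3*, *RBP5*, *TTR* and *STRA6* were not well above background. Of the degradation and delivery genes, *CYP26C1* (-0.25 ± 0.07, limma adjusted p = 0.0181) was below the FC threshold, and *FABP5*, a carrier of retinoic acid and fatty acids, was not called at -0.20 ± 0.43 (limma adjusted p = 0.338). Without array 3 the *FABP5* ratio was -0.02. On the spike-in scale both were called lower, *CYP26C1* at -0.74 and *FABP5* at -0.69. *PPARD* was not well above background.

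Coregulators were measured most completely, with 11 of 13 listed genes on the array tested, and 9 were not called. The median log2 ratio was -0.10. *NCOA1*, a coactivator of nuclear receptors, fell, with ratios of -0.75, -0.55, -0.51 and -0.90 on arrays 1 to 4. The mean was -0.68 ± 0.18 (limma adjusted p = 0.00136), and all 5 of its tested probes were called lower. *NCOA3*, a related coactivator, rose by 0.46 ± 0.21 (limma adjusted p = 0.00871), but had a ratio of -0.03 on the spike-in scale. Without array 3 its ratio was 0.36 and it was not called.

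Of 7 tested partners of the retinoid X receptors, 3 rose and 4 were not called, with a median of 0.26. *NR1H3*, the liver X receptor alpha, had ratios of 0.82, 1.50, 1.22 and 1.11, a mean of 1.16 ± 0.28 (limma adjusted p = 4.98e-04). *NR4A2*, an orphan receptor, rose by 0.69 ± 0.53 (limma adjusted p = 0.0253), with a ratio of 1.32 on array 3 and 0.04 on array 4. It was not called without array 2 or without array 3, at 0.66 and 0.49. *THRB*, a thyroid hormone receptor, had a mean of 0.46 ± 0.36 (limma adjusted p = 0.0315) and a ratio of -0.01 on array 3. Its call was lost without array 1, 2 or 4, at 0.38, 0.37 and 0.49, and its sign turned on the spike-in scale, to -0.03. *PPARG*, *VDR*, *NR1I2* and *NR1I3* were not well above background in either channel.

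Of 9 tested genes widely used as readouts of the receptors, 4 rose, 1 fell and 4 were not called, with a median of 0.33. *RARRES1*, a retinoid-responsive gene, had ratios of 0.77, 1.21, 1.37 and 1.22, a mean of 1.14 ± 0.26 (limma adjusted p = 4.13e-04), and both of its tested probes were called. *TGM2*, a transglutaminase, was well above background in the HMB-treated group on all 4 arrays and in the control on none. As a mean over the arrays, its bound was 2.32-fold higher with HMB. On array 4 its ratio was 0.77, and on the spike-in scale its mean ratio was 0.96. As *TGM2* passed the filter only through the HMB-treated group, these values are a description. It was not tested when both channels were required. *PLAT*, the tissue plasminogen activator, rose by 0.62 ± 0.21 (limma adjusted p = 0.00287) and all 5 of its tested probes were called. *RARRES2*, which encodes chemerin, rose by 0.42 ± 0.16 (limma adjusted p = 0.00724), but had a ratio of -0.07 on the spike-in scale. It was not called without array 4, at 0.36. The homeobox gene *MEIS1* went the other way. It fell, with ratios of -0.80, -0.60, -0.67 and -0.77 on arrays 1 to 4 and a mean of -0.71 ± 0.09 (limma adjusted p = 4.15e-04). *HOXB1*, *RARRES3*, *STRA8*, *CDX1*, *GBX2* and *CEBPE* were not well above background.

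Under normexp and loess 5 of the genes in the lists were called, namely *ALDH1A3*, *DHRS3*, *RARRES1* and *RARRES2* higher and *NCOA1* lower. There *DHRS9*, *NR1H3*, *TGM2* and *PLAT* had ratios of 0.33, 0.34, 0.31 and 0.38, and *MEIS1* had a ratio of -0.22. *NCOA3*, *THRB* and *NR4A2* had ratios of 0.17, 0.18 and 0.13 there, and these 3 genes were not called by the methods' t-test either.

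**Figure D4:**
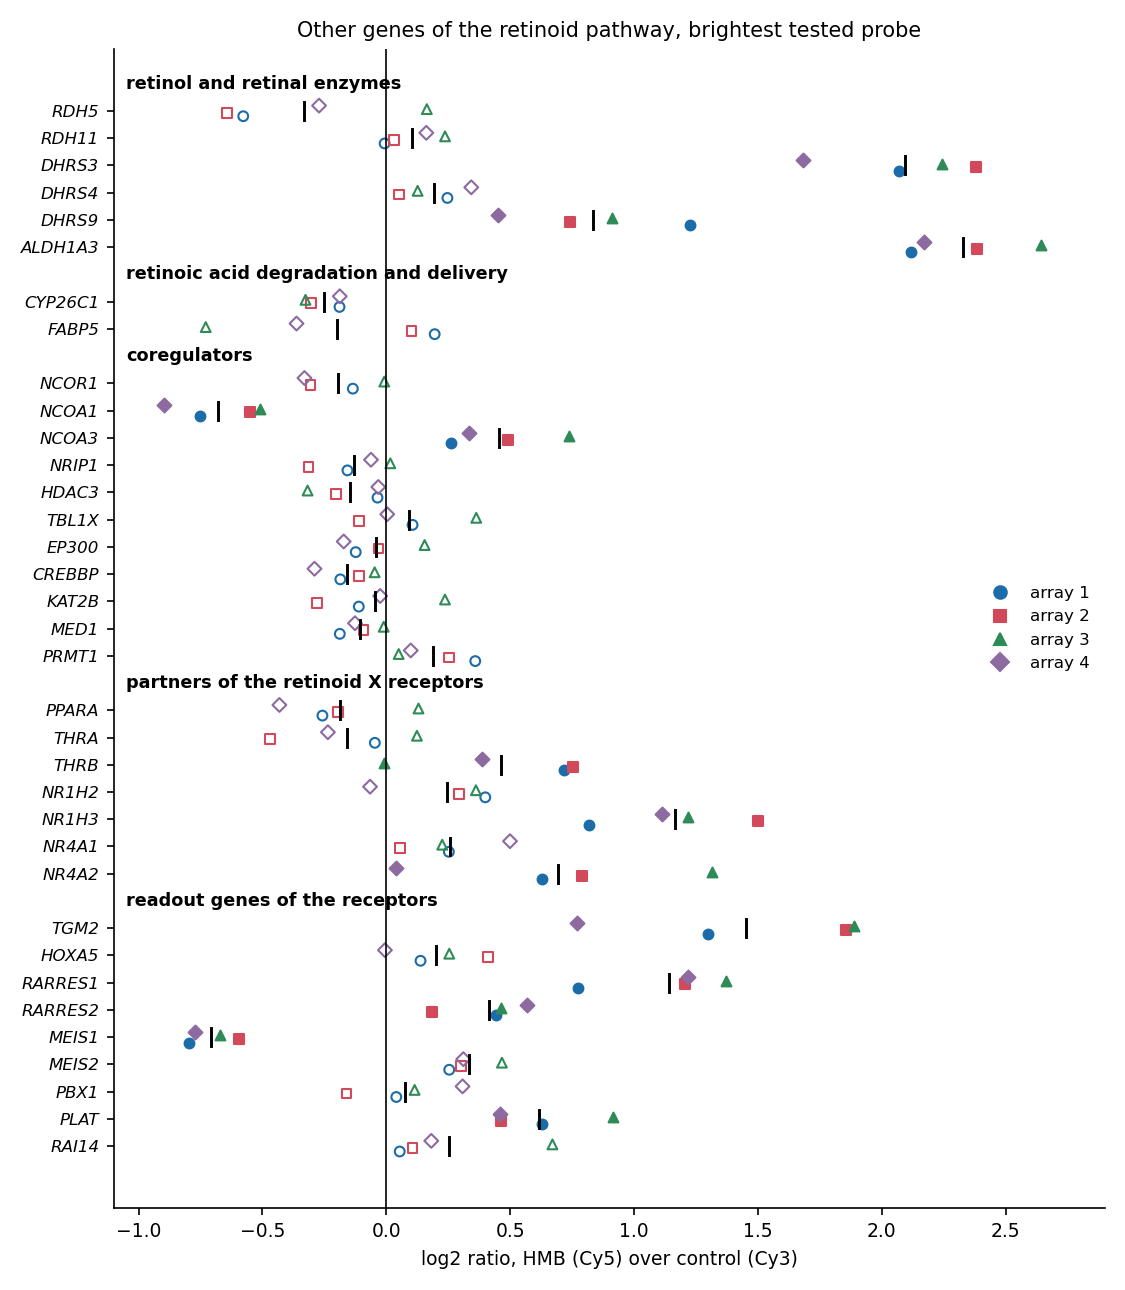
Log2 ratio of HMB over control (x axis) for the 35 tested genes of the lists (rows) on 4 arrays (symbols), each gene by its brightest tested probe. Filled symbols are called genes, open symbols are genes not called, and the black bar is the mean. *ALDH1A3* and *DHRS3* lie above 1.5 on every array, and *NCOA1* and *MEIS1* lie below 0 on every array. On the spike-in scale *NCOA3*, *THRB* and *RARRES2* turn to just below 0.

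Markers of cell types moved in the same comparison. All 7 myogenic markers matched on the array were tested. Of these, 5 were called lower with HMB (*MYF5*, *DES*, *MYH3*, *CKM* and *ACTA1*, at -0.93 to -1.49), and *MYOD1* and *MYOG* were not called. *PAX7*, *MYMK* and *CDH15* were not matched. The signal summed over the 7 tested markers was 166055 to 186895 in the control and 63223 to 100515 in the HMB-treated group. Of 6 tested fibroblast markers, 4 were called higher (*PDGFRA*, *THY1*, *DCN* and *LUM*, at 0.42 to 1.49), each with ratios above 0 on all 4 arrays. *COL1A2* and *COL3A1* were not called by their brightest probes, although 3 of the 7 *COL3A1* probes were called higher. The methods include a step in which fibroblasts adhered and were left behind. The fibroblast signal summed over all 6 overlapped, at 413316 to 503650 in the control and 405633 to 633656 in the HMB-treated group. Without *COL1A2* and *COL3A1* the sums were 58074 to 71919 in the control and 91678 to 132809 in the HMB-treated group. That sum holds only the 4 genes called higher, so its rise follows from the choice and is not further support. Of 2 tested leukocyte markers, *CD68* was called higher and *CD14* was not called, with summed signals of 3652 to 4392 and 4126 to 6169. *CD3E* and *ITGAM* were not well above background in either channel, nor were 4 of 5 endothelial and 2 of 3 adipocyte markers. The part of these shifts in the retinoid genes was not tested.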

How the data were processed

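RNA from equine satellite cells was measured on Agilent horse arrays, with 45220 spots per array and all 4 arrays on 1 slide. The intensity and log10 ratio values were deposited by the authors after background subtraction and linear and lowess normalization within each array, per the file headers by Feature Extraction 10.10.1.1 on EquCab1. That software puts a surrogate in place of a signal not above background, which compresses the ratio of a dim probe. The authors' table holds the same log10 ratios, within 3.96e-05. Here the deposited log10 ratios were changed to log2 values. The 1264 positive and 153 negative control spots and flagged spots were left out, and spots of a probe were averaged. Tested probes had a channel well above background on 4 arrays and at least 3 ratios. They were fitted with limma 3.58.1 in R 4.3.3 (intercept, plain eBayes) with Benjamini-Hochberg correction over all tested probes. Bounds set the dim channel, after quantile scaling of mean brightness between arrays, at the higher of its own signal and the lowest signal among probes with all unflagged spots well above background. The test was checked on simulated data. The number of arrays limits the precision.

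All member probes and every called gene of each list were named. *RARRES2* and *CYP26C1* were named by the descriptions in the files. Some listed genes are not reported here, and no count includes them. The members and lists were chosen with earlier results of these data known.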

Additional observations from a re-analysis of the deposited data

Results flagged for a closer look

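Among 72 sets of 4 values (ratios and channel signals of the 19 probes, and ratios of the pathway genes), 7 held an array far from the other 3. The measure was the gap to the nearest array as a share of the whole range. For channel signals the share was taken on the log2 scale, while the signals printed are in scanner units. Chance flags about 1 set in 20, and the probes of a gene overlap.

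For *RARG*, array 1 lay apart on P053419, at 0.54 against 0.98 to 1.04 (share 0.863), and on P053417, at 0.63 against 0.92 to 0.94 (share 0.927). For *RXRA* P014821, array 2 lay apart, with a log2 ratio of 3.05 against 1.91 to 1.98 (share 0.937). A surrogate stood in for 1 of the 4 control signals of P014821. For *RXRA* P014825, the control signal of array 2 was 10.3 against 25.4 to 28.1 (share 0.900). The remaining sets came from probes that were not well above background in either channel on any array. For *CYP26B1*, array 3 had a ratio of -1.79 against -0.01 to 0.16 (share 0.913). For *RARA*, array 3 had a ratio of 0.77 against 0 on the others (share 1.00). For *RXRG*, the HMB signal of array 4 was 7.64 against 5.93 to 6.18 (share 0.836).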

How the results depend on the processing

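The results were recomputed under 18 alternatives, which change the test, background correction, scaling, filter, source table or arrays used. The count of called member probes was 8 and ranged from 6 to 10, and without 1 array in turn it was 8 to 9. Of the 21 member probes and pathway genes called, 9 were called under every alternative in which they were tested. Both counts hold overlapping *RARG* probes, which count as 1 measurement, so they are not counts of separate results. Of all tested probes, 7048 were called, against 2822 with limma's treat, 3538 with normexp and loess, 4439 with loess without background correction, 18576 on the spike-in scale and 6642 to 7156 without 1 array. The methods' t-test called 5031 probes after Benjamini-Hochberg correction and 6459 at an uncorrected p of 0.05, both at the same FC. Of the pathway genes, 13 were called, against 8 with treat, 5 with normexp and loess, 22 on the spike-in scale (5 higher and 17 lower, against 11 and 2) and 11 to 12 without 1 array. On the spike-in scale the sign turned for *CRABP2* (-0.19), *NCOA3* (-0.032), *THRB* (-0.026) and *RARRES2* (-0.073). With no filter on dim probes, 3 further *RXRA* probes were called (P014821, P014822 and P014823) and P014824 was not. The cause of these shifts was not tested. The fit is paired by array, since each ratio sets the HMB-treated RNA against the control RNA of its array. Depth here is signal over background, and it left 9 of the 19 probes untested.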
